A study of Mus musculus with 2 samples.

Results

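The cells described here are macrophages of the mouse heart ventricle that carried abundant MHC class II transcripts and no transcript of Ccr2, Timd4 or Lyve1. They were chosen from their own UMI counts. A UMI (unique molecular identifier) stands for a single captured RNA molecule. A barcode was taken if it held at least 500 UMIs, at most 10% mitochondrial UMIs, at least 15 UMIs of C1qa, C1qb and C1qc together, at most 3 of Dcn, at most 1 of Pecam1 and Cdh5 together, 0 of Ccr2, 0 of Timd4 and Lyve1, and at least 30 of H2-Aa, H2-Ab1 and H2-Eb1 together. The rule found 1110 of the 14099 barcodes, 461 in mouse 1 and 649 in mouse 2. The study profiled the non-myocytes of the ventricles of 2 C57BL/6 mice, wild type and aged 10 to 12 weeks, with 1 droplet 3' library per mouse and neither treatment nor mutation. Hearts were perfused and digested, atria and myocytes were removed, red cells were lysed, and live cells negative for the dye 7-AAD were sorted. The values of the rule genes are therefore a description and were not tested.

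MHC class II molecules display peptides from engulfed proteins to CD4+ T cells. The invariant chain Cd74 escorts the newly made class II dimer, the cathepsin Ctss trims that chain, H2-DM loads the peptide, and the coactivator Ciita switches the class II genes on. Resident heart macrophages marked by Timd4, Lyve1 and Folr2 maintain themselves in the tissue, whereas Ccr2 positive macrophages are replenished from blood monocytes. Class II-high, Ccr2-negative cells are known as a further population of the resting mouse heart.

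The class II promoters carry an X box and a Y box, bound by the RFX and NF-Y complexes to which Ciita attaches. RefSeq promoter sequences (GRCm38.p6, 250 bases before to 50 after the start) are shown for 3 genes, 2 that the rule used and 1 that was tested, because these elements join the class II genes. H2-Aa lies at chr17:34287774-34288073 on the minus strand, H2-Eb1 at chr17:34305617-34305916 on the plus strand and H2-DMb1 at chr17:34152941-34153240 on the plus strand. Capitals mark the X box core letters GATGATG and the Y box letters TGATTGG.
H2-Aa: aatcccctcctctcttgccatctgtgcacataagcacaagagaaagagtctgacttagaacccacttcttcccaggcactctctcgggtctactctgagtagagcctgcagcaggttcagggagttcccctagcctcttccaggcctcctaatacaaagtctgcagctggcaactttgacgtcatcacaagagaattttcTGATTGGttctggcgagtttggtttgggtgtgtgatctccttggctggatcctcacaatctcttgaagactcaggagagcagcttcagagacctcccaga
H2-Eb1: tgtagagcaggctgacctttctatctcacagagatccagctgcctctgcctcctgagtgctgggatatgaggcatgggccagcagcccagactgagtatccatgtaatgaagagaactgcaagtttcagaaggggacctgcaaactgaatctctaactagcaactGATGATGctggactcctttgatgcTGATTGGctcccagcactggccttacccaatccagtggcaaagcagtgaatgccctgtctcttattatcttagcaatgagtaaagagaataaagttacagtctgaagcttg
H2-DMb1: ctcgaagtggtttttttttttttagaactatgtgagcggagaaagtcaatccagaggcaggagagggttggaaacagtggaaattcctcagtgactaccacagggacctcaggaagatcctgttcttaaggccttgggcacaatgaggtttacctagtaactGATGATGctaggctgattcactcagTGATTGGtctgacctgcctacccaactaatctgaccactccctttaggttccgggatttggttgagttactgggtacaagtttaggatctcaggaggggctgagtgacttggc
H2-Eb1 and H2-DMb1 held 1 match to the X box core letters and 1 to the Y box letters each. H2-Aa held the Y box letters and no exact match to the X box core letters. Only exact matches were searched, so an X box with other letters would be missed. The search covered both strands, and the 2 motifs do not overlap in these windows. The X box core letters occurred in 1143 of 32851 promoters of this length (3.48%), and the Y box letters in 2568 (7.82%). The X box core letters were chosen with these promoters in view, so the matches are a description.

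Class II-high macrophages made up 14.8% of C1q-gated macrophages in mouse 1 (461 of 3107, exact Clopper-Pearson 95% interval 13.6 to 16.1) and 26.7% in mouse 2 (649 of 2435, 24.9 to 28.5), a mean of 20.7% ± 8.35 (SD, n = 2). Intervals and limits cover counting error only. The other gated cells were 403 class II-low cells (176 and 227, under 30 class II UMIs, no Ccr2, Timd4 or Lyve1), 3530 cells with at least 1 UMI of Timd4 or Lyve1 (2185 and 1345, any class II level), and 342 Ccr2 positive cells (186 and 156, any class II level). A further 157 cells carried both kinds of UMI and were left out of the comparisons.

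The rule genes themselves describe the cells. A class II-high cell held a median of 92 class II UMIs in each mouse, from 30 to 458 in mouse 1 and from 30 to 386 in mouse 2. That was a median of 3.82% and 4.11% of all its UMIs. Class II-low cells held a median of 3 and 7 class II UMIs, and Ccr2 positive cells 143 and 136.5. C1q UMIs had a median of 50 and 43 per class II-high cell, against 46.5 and 39 per class II-low cell. Among gated cells without Ccr2, Timd4 or Lyve1 UMIs the most populated bin was 60 to 119 class II UMIs, with 35.8% of them in mouse 1 and 36.3% in mouse 2.

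**Figure D1:**
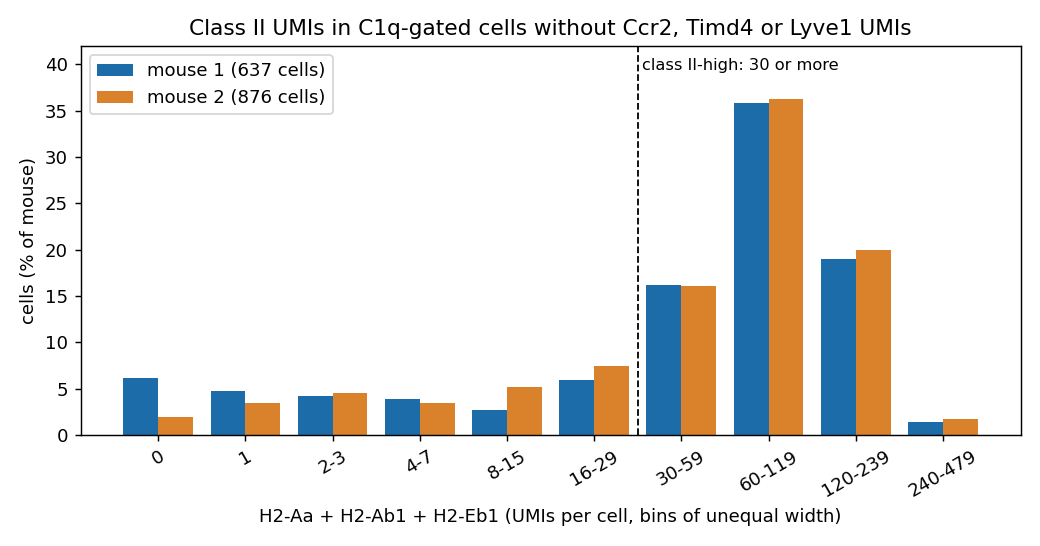
Share of C1q-gated cells without Ccr2, Timd4 or Lyve1 UMIs (y axis, percent of each mouse) by class II UMIs per cell (x axis, bins of unequal width), for 637 cells of mouse 1 and 876 of mouse 2. Bars right of the dashed line at 30 UMIs are the class II-high cells, and the fullest bin in both mice is 60 to 119 UMIs.

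Few cells lay just inside or just outside the threshold of 30 class II UMIs. The 14 and 21 cells of 30 to 34 class II UMIs had 18563 and 25643 CPM of Cd74, and the 13 and 17 cells of 25 to 29 had 23962 and 21816 CPM. CPM here means UMIs per 1000000 UMIs of the summed cells, after the 12 rule genes and the mitochondrial genes were taken out. Folr2 stood at 299 and 768 CPM just inside and at 510 and 706 CPM just outside. Cx3cr1 stood at 66.5 and 154 CPM just inside and at 170 and 134 CPM just outside, and Cd163 at 566 and 645 CPM just inside and at 467 and 403 CPM just outside. H2-DMa stood at 599 and 860 CPM just inside and at 637 and 975 CPM just outside. Cd74, Folr2 and Cx3cr1 had opposite orders in the 2 mice. Cd163 was higher and H2-DMa lower just inside in both. Each value comes from 13 to 21 cells, and apart from Cd74 the sums hold few UMIs of these genes. No interval was computed and the orders were not tested, so they are not findings.

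The absence of Ccr2, Timd4 and Lyve1 UMIs depended on depth. Among gated cells with at least 30 class II UMIs, the share that passed as class II-high was 59.6% under 2000 UMIs, 37.2% from 2000 to under 4000 and 14.2% at 4000 or more in mouse 1. In mouse 2 it was 71.3%, 45.5% and 24.4%. The share with a Ccr2 UMI but no Timd4 or Lyve1 UMI was 9.33%, 12.2% and 22.5% over the same depths in mouse 1. In mouse 2 that share was 4.48%, 10.7% and 24.4%. Cells with both kinds of UMI are left out of it, so the share with any Ccr2 UMI was at least as high. Median depth was 2439 and 2390 UMIs in class II-high cells, 2016 and 2039 in class II-low cells, 2944 and 2847 in Timd4 or Lyve1 positive cells, and 3424 and 3007.5 in Ccr2 positive cells. How many class II-high cells carry Ccr2, Timd4 or Lyve1 transcripts that were not captured was not tested.

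The label was checked against markers. All 8 macrophage markers, among them the growth factor receptor Csf1r (733 and 913 CPM) and Adgre1 (426 and 447 CPM), stood at 50 CPM or more in class II-high cells of both mice. Cx3cr1, the fractalkine receptor, was at 106 and 272 CPM. The 8 dendritic cell markers summed to 9.06 and 8.19 CPM, with Ccr7, Dpp4 and Itgae at 0 in both mice and Clec9a also at 0 in mouse 1. The 6 monocyte markers summed to 20.8 and 6.14 CPM. No class II-high cell held 3 or more UMIs of the 4 B cell markers, in 461 and 649 cells, which allows a share of up to 0.651% and 0.462%.

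Transcripts that mark other cell types were present. The 6 cardiomyocyte markers summed to 806 and 254 CPM in class II-high cells, 608 and 157 in class II-low cells, 429 and 147 in Timd4 or Lyve1 positive cells and 743 and 268 in Ccr2 positive cells. All 6 were detected in class II-high cells of both mice, and Ttn was at 0 in class II-low and in Ccr2 positive cells of mouse 2. In class II-high cells, 20 of mouse 1 (4.34%) and 2 of mouse 2 (0.308%) held 10 or more of these UMIs. The 5 endothelial markers, all detected, summed to 667 and 905 CPM. Most of that sum was Fabp4 (414 and 543 CPM) and Cd36 (198 and 276 CPM), the only 2 at 50 CPM or more. Both also stand in the lipid handling list, and whether macrophages made them was not tested. The 4 neutrophil markers summed to 241 and 26.6 CPM, with S100a9 and Retnlg at 0 in mouse 2, and to 601 and 2.88 CPM in fibroblast-gated cells of the same libraries. The part of these transcripts in the comparisons was not tested.

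UMIs were summed per group and mouse, and the 4 groups of both mice entered 1 edgeR quasi-likelihood fit with mouse as a block. A gene was called at a Benjamini-Hochberg adjusted p under 0.05 over 7662 genes with a change of at least 1.5-fold. The groups were cut from the same hearts by their own transcripts, so a gene that varies with the rule genes differs between them by construction. The p-values weigh each difference against a spread with 3 residual degrees of freedom that is largely shared across genes. They are not a measure of how far a difference recurs between mice.

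The first comparison set class II-high cells against class II-low cells, which also lack Ccr2, Timd4 and Lyve1 UMIs. In class II-high cells 76 genes were higher (0.992% of genes tested) and 88 were lower (1.15%). With no mouse block the counts were 7 and 5, and DESeq2 called 35 and 46. The genes called included class II presentation genes, which were higher, and scavenger genes of resident macrophages, which were lower.

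Cd74 had 45910 and 47649 CPM in class II-high cells, against 6374.5 and 7404.3 CPM in class II-low cells. The groups did not overlap, and the log2 fold change was 2.86 ± 0.07 (SE, edgeR adjusted p = 9.95e-16). H2-DMb1, a chain of the peptide loader, had 1029.9 and 1053.4 CPM against 198 and 235 CPM (log2 2.36 ± 0.13). H2-DMa, its partner, had 1221 and 1443.6 CPM against 321 and 396 CPM (log2 2.00 ± 0.11). Ctss had 2577 and 2205 CPM against 1637 and 1416 CPM (log2 0.74 ± 0.06). Ciita had 30.8 and 57.3 CPM against 0 and 13.4 CPM, the 0 being 0 UMIs in mouse 1. These 5 were the called genes among the 15 tested of the class II presentation list, all higher, with a list median log2 fold change of 0.74 against -0.00071 over all genes tested. RFX and NF-Y subunits were measured low and none was called in this comparison, for example Rfxank at 10.9 and 18.4 CPM against 22.9 and 11.2 CPM.

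Of 13 costimulation genes tested, 4 were higher and 0 lower. Cd83, a surface protein of activated antigen presenting cells, had 280 and 453 CPM in class II-high cells against 181 and 259 CPM in class II-low cells (log2 0.84 ± 0.13). Cd72 had 216 and 201 CPM against 172 and 80.5 CPM, and Cd52 had 1427 and 1336.5 CPM against 880 and 593 CPM. Slamf7, a receptor of immune cells, was also called, at 16.3 and 39.6 CPM against 11.5 and 6.71 CPM. The costimulator Cd86 was not called, at 213 and 228 CPM against 181 and 248 CPM.

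Il1b, which encodes the inflammatory cytokine interleukin 1 beta, had 169 and 293 CPM in class II-high cells against 60.2 and 67.1 CPM in class II-low cells (log2 1.97 ± 0.22, edgeR adjusted p = 1.09e-05). The other largest rises were in Zmynd15, Plbd1, Gngt2 and Fcgr4, the last an Fc receptor at 361 and 216 CPM against 146 and 47.0 CPM. Cx3cr1 had 106 and 272 CPM against 71.7 and 132 CPM (log2 1.01 ± 0.21, edgeR adjusted p = 0.0063); the groups overlapped across mice while both mice gave the same direction. Axl, a receptor for dying cells, had 135 and 171 CPM against 77.4 and 87.2 CPM.

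Of 20 scavenger genes of resident macrophages tested, 14 were lower in class II-high cells and 1, the lectin Mgl2, was higher. Folr2, the folate receptor beta, had 198 and 371 CPM in class II-high cells against 780 and 984 CPM in class II-low cells (log2 -1.54 ± 0.13). Ltc4s, which makes leukotriene C4, had 58.9 and 119 CPM against 229 and 400.3 CPM. Cd163, the haptoglobin-hemoglobin receptor, had 259 and 312 CPM against 487 and 534 CPM. Fcna and the eotaxin Ccl24 were among the largest falls, Ccl24 at 55.3 and 239 CPM against 232 and 662 CPM. The list was chosen with earlier results of these data known, and its median log2 fold change was -0.80.

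Ube2c, Birc5 and Top2a, genes of dividing cells, were also among the largest falls. Top2a, a topoisomerase, had 17.2 and 32.7 CPM in class II-high cells against 112 and 73.8 CPM in class II-low cells, and Birc5 had 16.3 and 30.7 CPM against 100 and 116 CPM. Cells with 3 or more UMIs of Mki67, Top2a, Birc5 and Cdk1 were 6 of 461 (1.30%) and 12 of 649 (1.85%), against 12 of 176 (6.82%) and 12 of 227 (5.29%). Few cells in each group held these UMIs. Top2a was not called by DESeq2 (adjusted p = 0.36).

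**Figure D2:**
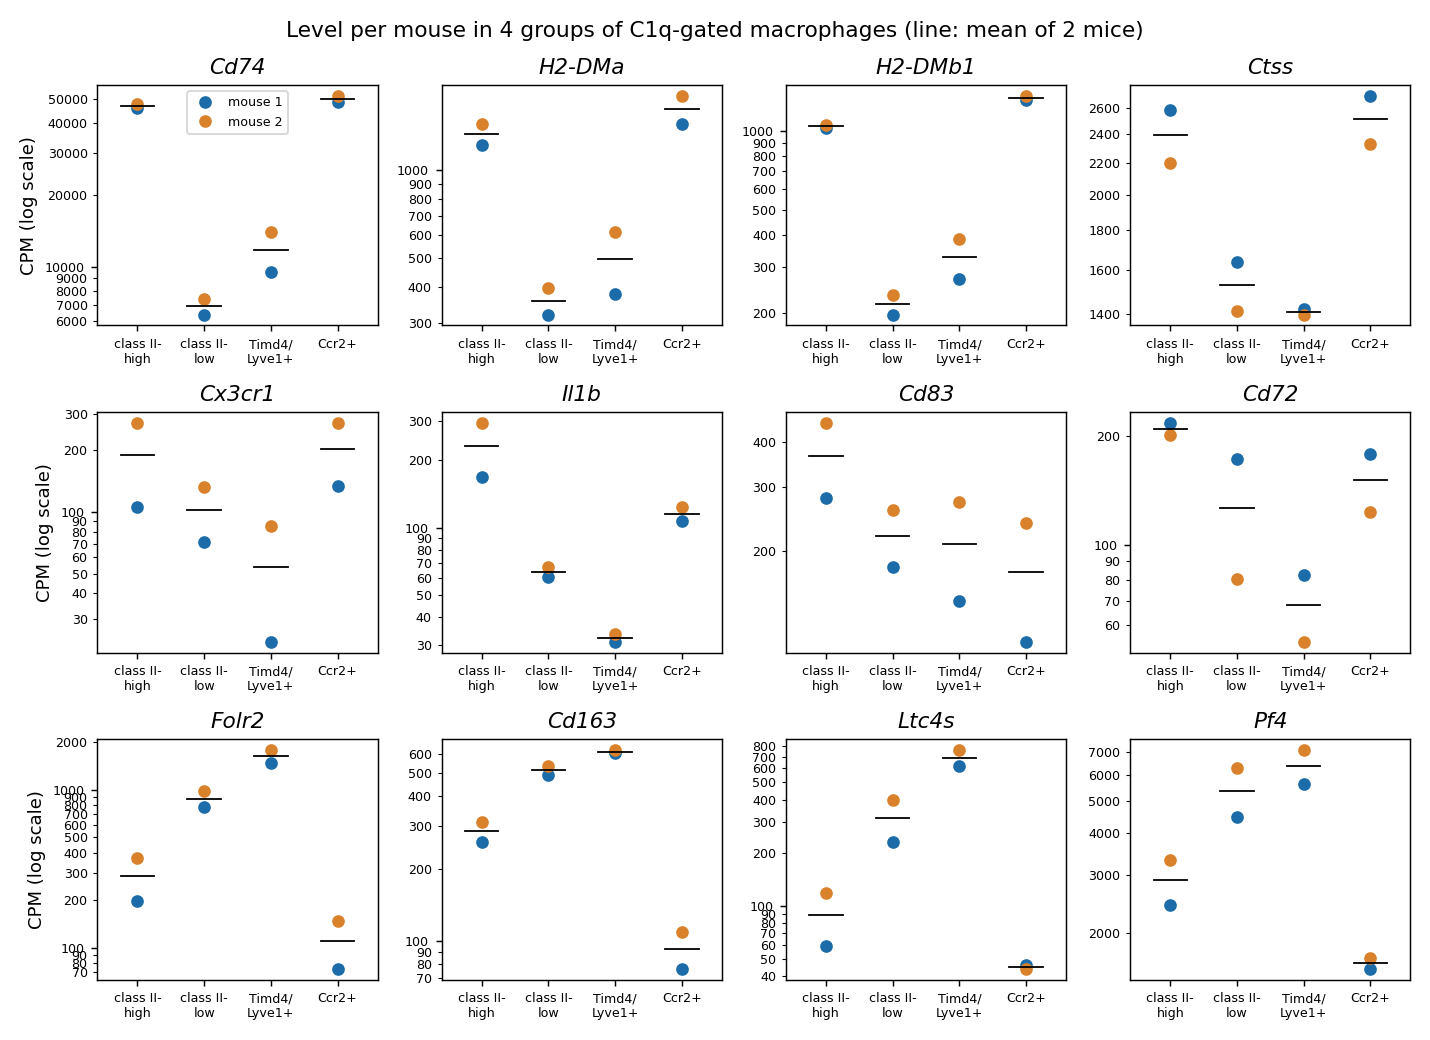
CPM (log scale) of 12 genes in class II-high, class II-low, Timd4 or Lyve1 positive and Ccr2 positive macrophages, 1 point per mouse with the mean as a line. Cd74 sits at 45910 and 47649 CPM in class II-high cells, above class II-low cells and beside Ccr2 positive cells, while Folr2, Cd163, Ltc4s and Pf4 lie between those of Timd4 or Lyve1 positive and Ccr2 positive cells.

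Against Timd4 or Lyve1 positive cells, the most abundant gated group, 410 genes were higher in class II-high cells (5.35% of genes tested) and 367 were lower (4.79%). The median class II UMIs of that group were 3 and 13 per cell. With no mouse block the counts were 97 and 80, and DESeq2 called 191 and 160. Class II presentation had 8 of 15 genes higher and 0 lower. They were Cd74, Ciita, H2-DMa, H2-DMb1, H2-DMb2, H2-Ob, Ctss and the RFX subunit Rfxap. Costimulation had 7 of 13 higher and 0 lower, namely Cd86, Icosl, Icam1, Cd83, Cd72, Slamf7 and Cd52. The scavenger list had 19 of 20 lower and 0 higher.

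Cd74 had 45910 and 47649 CPM in class II-high cells against 9605.5 and 14018 CPM in Timd4 or Lyve1 positive cells (log2 2.05 ± 0.07). Il1b had 169 and 293 CPM against 31.0 and 33.6 CPM (log2 2.85 ± 0.14, edgeR adjusted p = 1.11e-11). Cx3cr1 had 106 and 272 CPM against 23.2 and 85.0 CPM (log2 1.92 ± 0.14), with no overlap between groups. A Cx3cr1 UMI was found in 19.96% and 38.8% of class II-high cells, against 5.03% and 15.98% of Timd4 or Lyve1 positive cells. After thinning each cell to 2000 UMIs, which left out 115 and 191 class II-high cells and 347 and 251 Timd4 or Lyve1 positive cells below that depth, the shares were 16.8% and 34.7% against 3.21% and 12.3%. Fibroblast-gated cells, which should lack it, gave 0.631% and 0.851% after thinning, at median depths of 2752.5 and 2491 UMIs.

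Bcl2a1a, Bcl2a1d and Scimp were among the largest rises. Bcl2a1a, an inhibitor of cell death, had 59.8 and 68.9 CPM in class II-high cells against 7.68 and 9.41 CPM in Timd4 or Lyve1 positive cells. Bcl2a1d had 63.4 and 84.6 CPM against 15.8 and 20.4 CPM. The Bcl2a1 copies are near identical, so their split between symbols is uncertain. Scimp, an adaptor of class II signalling, had 135 and 155 CPM against 28.4 and 36.3 CPM, and Cd72 had 216 and 201 CPM against 82.5 and 54.1 CPM. The transcription factors Irf8, Id2, Runx3 and Batf3 were called higher among 20 tested, Irf8 at 268 and 310 CPM against 152 and 182 CPM.

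Vsig4, a complement receptor of resident macrophages, had 1.81 and 6.82 CPM in class II-high cells (2 and 10 UMIs) against 159 and 93.3 CPM in Timd4 or Lyve1 positive cells. Fcna had 11.8 and 19.1 CPM against 235 and 229 CPM. Folr2 had 198 and 371 CPM against 1480.9 and 1787.4 CPM (log2 -2.49 ± 0.11). The endothelin receptor Ednrb and the growth factor receptor Fgfr1 were also lower, Ednrb at 6.34 and 6.82 CPM against 81.9 and 81.0 CPM. The interferon-induced Ifi27l2a had 3144 and 2369 CPM against 7363 and 3789.5 CPM.

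With Timd4 or Lyve1 positive cells limited to those of at least 30 class II UMIs, 331 genes were called, of which 317 were among the 777 called with all cells (40.8%), 159 higher and 158 lower. In that setting the class II list had 1 gene higher, Cd74, and the scavenger list still had 15 lower. The H2-DMa log2 fold change was 0.45 there, under the fold threshold. This setting was chosen after seeing the data.

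Ccr2 positive cells also carried abundant class II transcripts. Against them 142 genes were higher in class II-high cells (1.85% of genes tested) and 133 were lower (1.74%). With no mouse block the counts were 15 and 24, and DESeq2 called 60 and 72. Of 15 class II presentation genes 0 were higher and 2 were lower. Cd74 had 45910 and 47649 CPM in class II-high cells against 48554 and 51653 CPM in Ccr2 positive cells (log2 -0.11 ± 0.07, edgeR adjusted p = 0.44). The 2 lower genes were Ifi30, a lysosomal thiol reductase, at 248 and 194 CPM against 379 and 278 CPM, and H2-DMb2 at 11.8 and 12.96 CPM against 38.4 and 31.4 CPM. Cx3cr1 was not called, at 106 and 272 CPM against 134 and 272 CPM.

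The scavenger genes lay on the other side, with 11 of 20 higher and 0 lower in class II-high cells. Cd163 had 259 and 312 CPM in class II-high cells against 76.7 and 109 CPM in Ccr2 positive cells (log2 1.63 ± 0.14, edgeR adjusted p = 2.73e-07). Folr2 had 198 and 371 CPM against 73.5 and 149 CPM, and Pf4 had 2436 and 3331 CPM against 1565 and 1688 CPM. The summed CPM of the 22 listed genes averaged 10119 ± 2136 in class II-high cells, 17363 ± 3639 in class II-low cells, 22944 ± 2690 in Timd4 or Lyve1 positive cells and 6276 ± 933 in Ccr2 positive cells (SD, n = 2 each). Within each mouse the order was the same.

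Apoe, the lipid carrier, had 32271 and 33678 CPM in class II-high cells against 12083 and 12507 CPM in Ccr2 positive cells (log2 1.41 ± 0.05, edgeR adjusted p = 7.31e-13). It was not called against class II-low or Timd4 or Lyve1 positive cells. Of 10 iron and heme genes 4 were called higher, Cd163 of the scavenger list, Slc40a1, Blvrb and transferrin (Trf), the last at 1562 and 1696 CPM against 785 and 883 CPM. Il1b had 169 and 293 CPM against 107 and 123 CPM, and Cd83 had 280 and 453 CPM against 112 and 239 CPM. The macrophage chemokine Ccl12 had 1157.6 and 571 CPM against 440 and 109 CPM.

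Among the genes picked by size of change, with at least 50 CPM in class II-high cells of both mice, Ccl8 had the largest fitted rise. It had 256 and 60.04 CPM in class II-high cells against 49.6 and 2.09 CPM in Ccr2 positive cells (log2 2.55 ± 0.29). A Ccl8 UMI was found in 10.4% and 6.01% of class II-high cells, against 11.8% and 0.641% of Ccr2 positive cells. In mouse 1, 1 cell held 165 of the 283 UMIs in class II-high cells. Without that cell the log2 fold change was 1.74 and the gene was still called, a setting chosen after seeing the data. That value is under those of Cyr61 (log2 2.30) and Ccl24 (log2 2.02) in the main fit.

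The largest falls against Ccr2 positive cells included S100a6, S100a4, Fn1, Retnla and Ear2. S100a6 had 220 and 132 CPM in class II-high cells against 1338.1 and 1246.9 CPM in Ccr2 positive cells (log2 -2.92 ± 0.11), and S100a4 had 48.9 and 49.8 CPM against 379 and 393 CPM. Fn1, fibronectin, had 9.06 and 2.05 CPM against 54.4 and 52.3 CPM. Retnla had 261 and 171 CPM against 1482 and 5046.2 CPM, and 1 cell held 220 of its 288 UMIs in class II-high cells of mouse 1. Ear2 had 5 and 0 UMIs against 48 and 57, and DESeq2 did not call it (adjusted p = 0.26). The 6 monocyte markers summed to 20.8 and 6.14 CPM against 323 and 96.2 CPM, and their part in these differences was not tested.

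**Figure D3:**
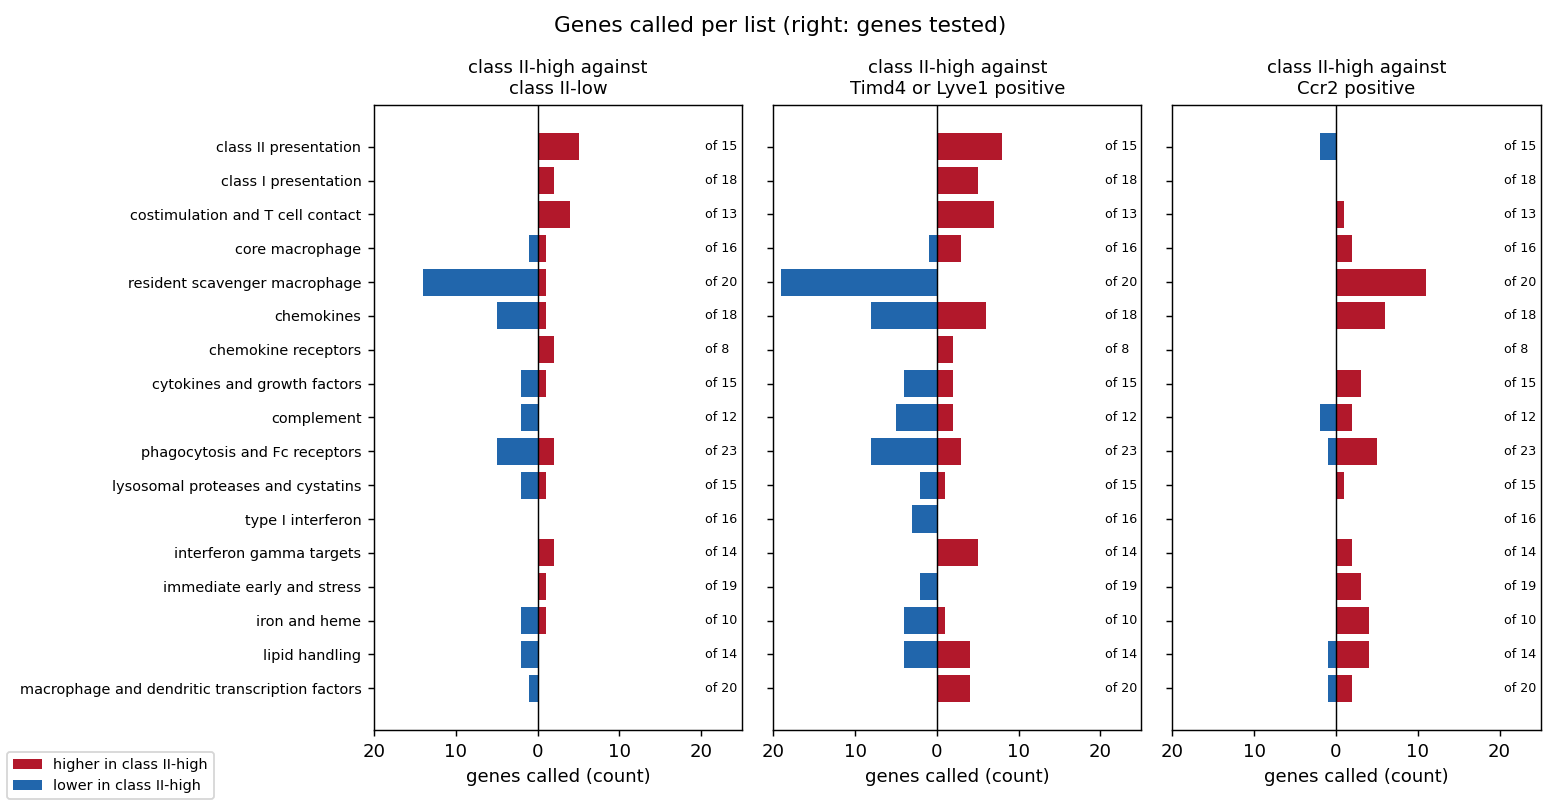
Genes called higher (right of 0) or lower (left of 0) in class II-high macrophages for 17 gene lists (rows) in the 3 comparisons (panels), as counts, with the number tested at the right. The scavenger list has 14 and 19 lower in the first and second panels and 11 higher in the third.

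Other lists also held called genes against class II-low cells. Over all genes tested, 0.992% were higher and 1.15% lower in that comparison. The shares were 5.35% and 4.79% against Timd4 or Lyve1 positive cells, and 1.85% and 1.74% against Ccr2 positive cells. Of 23 phagocytosis and Fc receptor genes 2 were higher and 5 lower, and of 10 iron and heme genes 1 was higher and 2 lower. Some genes stand in several lists, Cd163 in both of these and in the scavenger list. Class I presentation had 2 of 18 higher, H2-T23 and Psmb8. Of 16 type I interferon genes, 3 were lower against Timd4 or Lyve1 positive cells. Against class II-low cells Ifi27l2a lay just under the fold threshold, at 3144 and 2368.7 CPM against 5196 and 3663 CPM (log2 -0.58 ± 0.11, edgeR adjusted p = 0.00197). Chemokines had 1 of 18 higher and 5 lower against class II-low cells, 6 higher and 8 lower against Timd4 or Lyve1 positive cells, and 6 higher and 0 lower against Ccr2 positive cells. Of lysosomal proteases, Ctsd was lower at 330 and 296 CPM in class II-high cells against 639 and 763 CPM in class II-low cells, while Ctss was higher.

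Class II-high cells also varied among themselves. They were split into tertiles of the class II share of their UMIs, with cuts at 3.34% and 4.69%, giving 165, 166 and 130 cells in mouse 1 and 205, 204 and 240 in mouse 2. Cd74 was at 30971, 49536 and 62447 CPM from the lower to the upper tertile in mouse 1, and at 31030, 48994 and 62831 CPM in mouse 2. H2-DMa was at 876, 1251 and 1673 CPM in mouse 1 and at 948, 1570.3 and 1826 CPM in mouse 2. Il1b was at 114, 191 and 220 CPM and at 158, 276 and 440 CPM. All 3 genes were higher in each successive tertile of both mice. The tertiles were cut on rule genes, so a gene that varies with those genes differs between tertiles by construction. The levels per tertile are a description and were not tested.

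Folr2 and Cd163, of the scavenger list, were lower in each successive tertile of both mice. Folr2 was at 252, 188 and 135 CPM in mouse 1 and at 572, 323 and 213 CPM in mouse 2. Cd163 was at 352, 227 and 169 CPM and at 397, 339 and 206 CPM. Cx3cr1 gave opposite orders, at 116, 106 and 91.4 CPM in mouse 1 and at 220, 264 and 330 CPM in mouse 2. Median depth per tertile was 2547, 2450 and 2327 UMIs in mouse 1 and 2569, 2210.5 and 2310.5 in mouse 2.

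**Figure D4:**
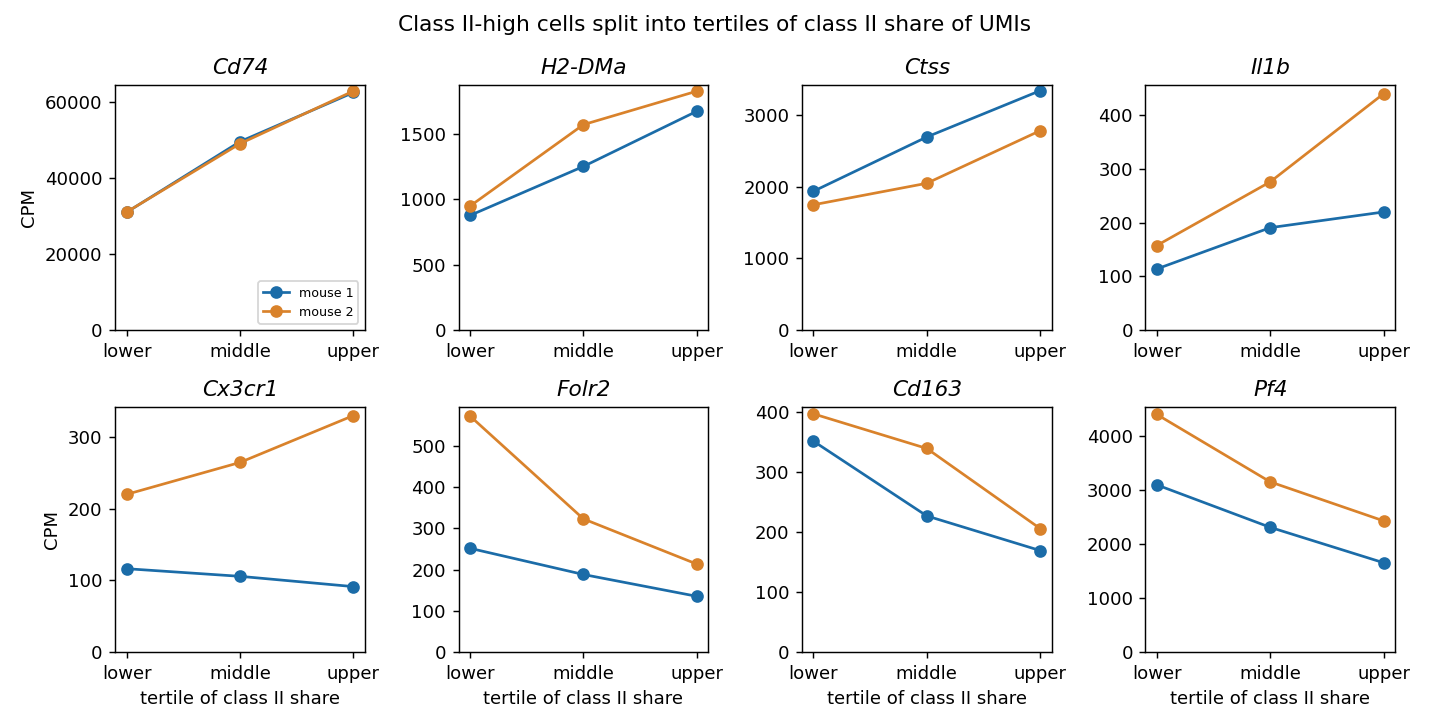
CPM (y axis) of 8 genes in class II-high macrophages split into tertiles of the class II share of UMIs (x axis), 1 line per mouse. Cd74 climbs to 62447 and 62831 CPM in the upper tertile, Folr2 drops to 135 and 213 CPM, and Cx3cr1 goes opposite ways in the 2 mice.

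Over single cells, 2513 genes detected in at least 10% of class II-high cells of both mice were ranked by their correlation with the class II share. The genes in the top 8 of 1 mouse and the top 20 of the other were Cd74 (Spearman's rho 0.77 in mouse 1 and 0.75 in mouse 2), H2-DMa (0.39 and 0.36), Ctss (0.35 and 0.31), H2-DMb1 (0.28 and 0.31), Plbd1 (0.20 and 0.19) and Psap (0.19 in both). The most opposite included the platelet factor Pf4 (-0.28 and -0.30), Cbr2 (-0.26 and -0.23) and Folr2 (-0.15 and -0.26). These are descriptions over 461 and 649 cells that share a library, and the class II share itself had a rho of -0.11 and -0.14 with depth. Weak values in sparse counts are not findings.

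The 2 mice were alike for most genes of class II-high cells. Of 1988 genes with at least 100 UMIs in 1 mouse, 1771 lay within 1.5-fold, 42 were at least 2-fold higher in mouse 1 and 14 at least 2-fold lower. With 1 library on each side no test was possible, and the intervals are exact binomial ones. S100a8, a neutrophil gene, was 34.8-fold higher in mouse 1 (14.5 to 109), at 119 CPM against 3.41 CPM in mouse 2. The same order held in class II-low cells (88.9 against 0 CPM), Timd4 or Lyve1 positive cells (334 against 9.68 CPM) and Ccr2 positive cells (57.6 against 4.18 CPM). The stress gene Ddit4 was 6.93-fold higher (4.41 to 11.3) and Rgs1 4.87-fold higher (3.44 to 7.02). Mouse 1 over mouse 2 was 0.23 for Ccl24 (0.17 to 0.30), 0.26 for the collagenase Mmp13 (0.16 to 0.40) and 0.27 for Hpgd, which degrades prostaglandins (0.23 to 0.32). For Ddit4, Rgs1, Ccl24, Mmp13 and Hpgd the order of the mice was also the same in the other 3 groups of macrophages. It was not for the histone gene Hist1h2ap, also among the largest ratios. Hist1h2ap had 38.9 CPM in mouse 1 against 102 CPM in mouse 2 in class II-high cells, but 172 against 82.7 CPM in class II-low cells.

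**Figure D5:**
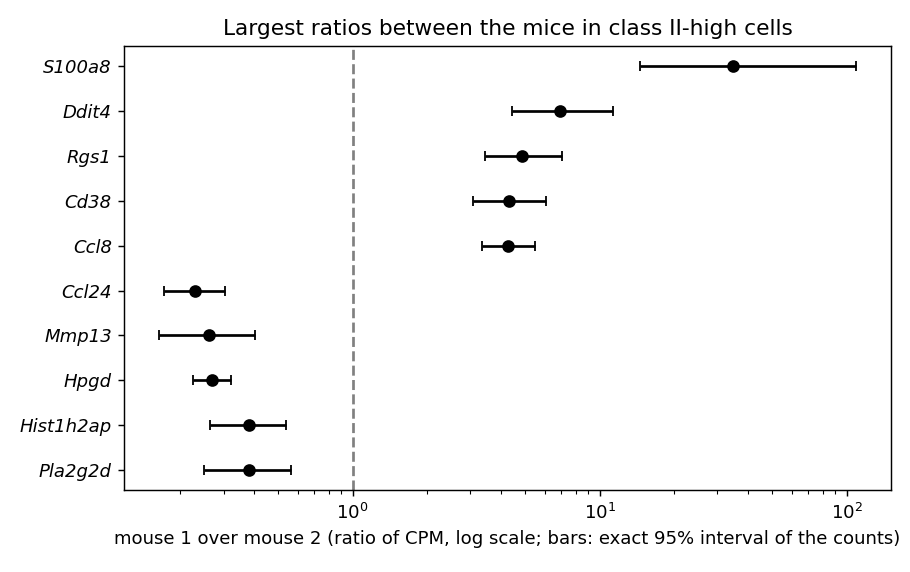
Ratio of CPM in mouse 1 over mouse 2 (x axis, log scale) for 10 genes of class II-high macrophages, with exact 95% intervals of the counts as bars. S100a8 lies at 34.8 and Ccl24 at 0.23. Ccl8 lies at 4.27, but 1 cell of mouse 1 held 165 of its 283 UMIs there. Without that cell mouse 1 had 107 CPM of Ccl8, against 60.04 CPM in mouse 2, and the bar does not cover this.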

How the data were processed

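Single-cell RNA sequencing tables of 2 mice were used, 1 library each. The deposited values are counts, whole UMIs per gene symbol and barcode with no normalization, per the file headers and values. FastQC, Cell Ranger 2.2.0 and the build mm10 are named per the submitters' processing notes; the rule by which the authors chose barcodes is not given in the sources used here. The tables held 7732 barcodes with 21355383 UMIs (mouse 1) and 6367 with 15174548 UMIs (mouse 2) over 27998 genes. The UMI and mitochondrial filters removed 717 and 431 barcodes, all by the mitochondrial limit, since no barcode was under 500 UMIs. The libraries shared 65 barcode sequences, and 0 among class II-high cells. Scrublet (scanpy 1.11.5) was run per mouse, and the 8 and 20 class II-high cells it called were kept in the main fit.

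UMIs were summed per group and mouse without the 12 rule genes and 13 mitochondrial genes, and the sums were fitted in R 4.3.3 with edgeR 4.0.16 (TMM, filterByExpr, quasi-likelihood F tests), with Benjamini-Hochberg adjustment over 7662 genes. Mouse was a block because all groups come from the same 2 animals; log2 ratios between the mice correlated at 0.21 to 0.59 between groups. The fit had 3 residual degrees of freedom, so calls lean on a spread shared across genes. SE is derived from the F statistic.

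The cells and gene lists were chosen with earlier results of these data known. Named genes were the 8 called genes of largest change per direction with the same direction in both mice and at least 50 CPM on the higher side, up to 4 members per list by CPM, all called class II presentation and costimulation genes, and 5 genes per direction between the mice; other genes in the text were called members of the lists, chosen after their values were seen. DESeq2 1.42.0, other scalings, filters, thresholds and cell sets were tried as alternatives. Single values of some list members are not reported here.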

Additional observations from a re-analysis of the deposited data

How the results depend on the processing

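The share of class II-high cells, as a mean of 2 mice, was 17.79% to 22.05% over other class II, C1q, depth and doublet settings. Per mouse it ran from 12.58% to 15.8% in mouse 1 and from 23% to 28.54% in mouse 2. With 1 mouse left out it was 14.84% and 26.65%. The genes followed were those picked by size of change and the called class II presentation, costimulation and scavenger genes. None of them changed direction in the settings run. Those picked by size of change had to share their direction in both mice, so leaving out 1 mouse could not reverse them. The fold floors reuse the main fit and could reverse none. Other genes in the text were not followed 1 by 1. Between a setting and the main counts, 0 genes were called in opposite directions.

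Counts of called genes moved by over 1.5 times in these settings. Against class II-low cells (164 called, 76 higher and 88 lower), DESeq2 called 81 (35 higher, 46 lower), the fit with no replicate block 12 (7 and 5), no fold floor 277 (158 higher) and a 2-fold floor 91 (38 and 53). Against Timd4 or Lyve1 positive cells (777, 410 and 367), DESeq2 called 351 (191 and 160), no replicate block 177 (97 and 80), no fold floor 1298 (692 and 606), a 2-fold floor 336 (178 and 158), and limiting that group to 30 class II UMIs 331 (163 and 168). Against Ccr2 positive cells (275, 142 and 133), DESeq2 called 132 (60 and 72), no replicate block 39 (15 and 24), no fold floor 440 (242 lower), a 2-fold floor 169 (82 and 87), and cells of 2000 to 6000 UMIs 160 (79 and 81). Fold floors change the counts by construction; for the others the cause was not tested.

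Without the mouse block, 24 of the genes followed against class II-low cells lost their call, Folr2 among them (edgeR adjusted p = 0.169). The call was kept by 9, with Cd74, H2-DMa and H2-DMb1 among those. With 1 mouse left out no residual degrees of freedom remain, so counts of calls have no such value. Low counts limit genes such as Ciita, Slamf7 and H2-DMb2.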
